A study of Drosophila melanogaster with 3 samples.

Results

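The genes described here encode the translation factors of Drosophila melanogaster, the proteins that start, extend and end protein synthesis on the ribosome. They were chosen by name alone, as the protein-coding genes whose symbol in the genome annotation begins with eIF (initiation), eEF (elongation) or eRF (release). The rule gave 54 genes, 44 for initiation, 8 for elongation and 2 for release, among 13945 protein-coding genes on the 6 chromosome arms. What was measured is the position on chromatin of the homeodomain protein HHEX (CG7056), by chromatin immunoprecipitation and sequencing (ChIP-seq) with an antibody to GFP. The material was whole mixed-sex embryos aged 0 to 24 h from a line that stably carries CG7056 joined at its C-terminus to GFP. All 3 biological replicates belong to this 1 group, so no condition is compared with another. The promoter that drives the tagged protein is not given in the sources used here. Peaks come from all cells of the embryo together, so stronger binding and binding in more cells cannot be told apart. The control alignment was not analysed here, and its part in any peak below was not tested.

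In translation initiation, eIF2 brings the initiator tRNA to the small ribosomal subunit, eIF2B recharges eIF2 with GTP, the large eIF3 complex holds the subunit ready, and the eIF4 proteins recognise and unwind the capped end of the mRNA. In elongation, eEF1alpha delivers each aminoacyl-tRNA, the eEF1beta, eEF1gamma and eEF1delta proteins form its recycling complex, and eEF2 moves the ribosome along. At a stop codon eRF1 and eRF3 release the chain. In flies, genes for ribosomal proteins and for several translation factors are known to begin at a pyrimidine-rich start called the TCT initiator.

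A gene was called bound when a summit, the highest point of a peak, lay within 1000 bp of one of its annotated transcription start sites (here, starts). Peaks are those of the authors' thresholded list of 5586 regions, made by the irreproducible discovery rate (IDR) procedure on dm6. Signal is the value the authors' peak caller gave each region, with no unit, and it is used within a list only. In the IDR list it runs from 156 to 5323 with a median of 255. Read depth is unknown, as the files hold regions and not reads.

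Of the 54 factor genes, 15 were bound, or 27.8% (exact binomial 95% interval 16.5 to 41.6%, which covers counting error only). Over all protein-coding genes the share was 23.2%, so the share of the factor genes lay near the background. Among IDR peaks at or above the median signal the shares were farther apart, with 13 factor genes (24.1%) bound against 14.1% of all protein-coding genes. Elongation factor genes were bound in 4 of 8 cases (50%, interval 15.7 to 84.3%), initiation factor genes in 10 of 44 (22.7%, interval 11.5 to 37.8%) and release factor genes in 1 of 2. The number of starts moves with this result. Of all genes with a single start 17.0% were bound, and of those with 2 or more 40.4%. Factor genes with a single start were bound in 6 of 32 cases (18.8%) and those with more in 9 of 22 (40.9%), each close to the share of all genes of that kind. The bound elongation factor genes all have 2 or more starts, as do 5 of the 8, and its part in their share was not tested.

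The 3 replicate lists gave the initiation and elongation shares separately. For lists of equal length, the 5586 regions of highest signal were taken from each replicate. In replicates 1, 2 and 3 these bound 18, 13 and 20 of the 54 factor genes, when 23.7%, 21.7% and 23.4% of all protein-coding genes were bound. Initiation factor genes were bound in 29.5%, 18.2% and 34.1% of cases, a mean of 27.3% ± 8.19 (SD, n = 3). Elongation factor genes were bound in 50%, 37.5% and 50%, a mean of 45.8% ± 7.22 (SD, n = 3). The elongation share was the higher in 3 of 3 replicates, by a mean of 18.6 percentage points ± 2.37. The two-sided exact sign-flip permutation test over 3 replicates gave p = 0.25, the smallest that this design allows, so it cannot pass a usual threshold. With 8 elongation genes, each gene counts for 12.5 points. The same genes were scored in each replicate, so neither the SD nor this p covers the small number of genes. In all 3 replicates 11 factor genes were bound (20.4%), against 15.4% of all protein-coding genes. The elongation count fell without replicate 1 or 3. Keeping only IDR summits that lay in a high-signal region of both other replicates left 2 elongation genes without replicate 1 and 2 without replicate 3. It left 4 without replicate 2. All protein-coding genes had 16.7%, 17.9% and 16.0% without replicates 1, 2 and 3. The 2 elongation genes lost each time were eEF1alpha1 and eEF2. Replicate 2 did hold a region at eEF1alpha1, of signal 202 with its summit 34 bp from a start, but the IDR summit lay outside it. No region of replicate 2 lay within 1000 bp of eEF2. On the same terms bound factor genes went from 15 to 9 and bound initiation genes from 10 to 6 without replicate 3, when 16.0% of all protein-coding genes were bound.

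**Figure D1:**
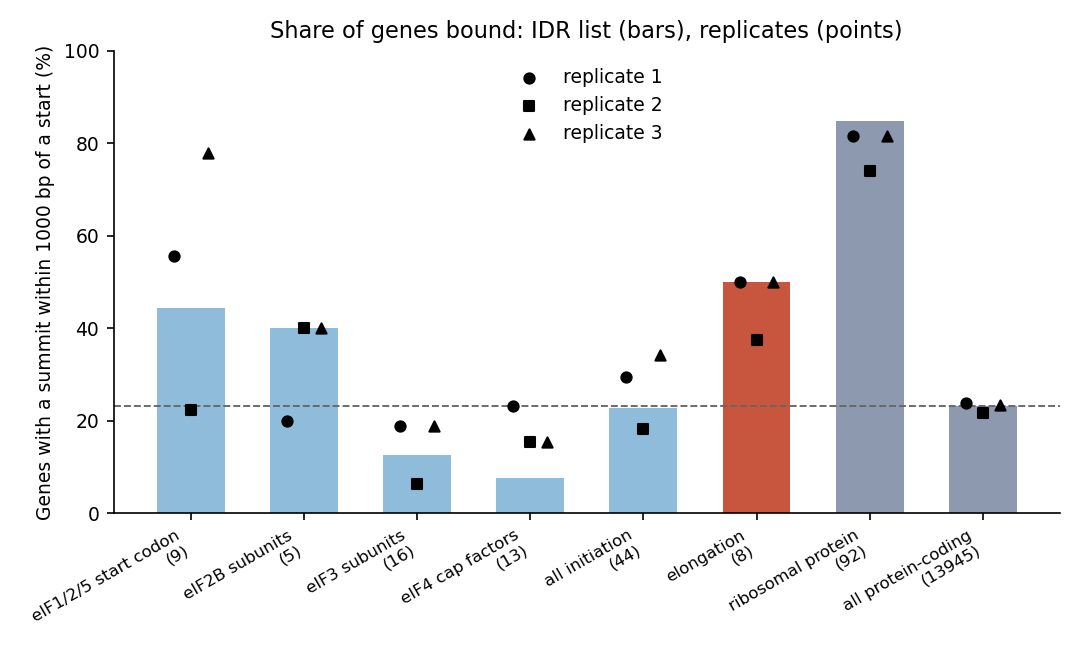
Share of genes with a summit within 1000 bp of a start (vertical axis, percent) for groups of factor genes, ribosomal protein genes and all protein-coding genes, with the number of genes under each name. Bars are the IDR list, points the 3 replicates and the dashed line all protein-coding genes (23.2%); eIF3 (12.5%) and eIF4 (7.69%) bars lie under the line and elongation (50%) above it. eIF6, a single gene, and the 2 release factor genes are not drawn as groups.

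In the IDR list elongation factor genes held the peaks nearest to their own starts, taking the nearest of a gene's annotated starts. The summit lay 6 bp from the start of eEF1gamma, 16 bp from that of eEF2, 18 bp from that of eEF1alpha1 and 19 bp from that of eEF5. Among bound initiation factor genes the nearest IDR summit was 33 to 784 bp away, with a median of 121 bp. In the IDR list the distances of the 2 classes thus did not overlap, but in the replicates they did. At the weaker eIF3h peak the summits of replicates 1, 2 and 3 lay 2, 16 and 33 bp downstream of the start. Those at eEF1gamma lay 6, 24 and 32 bp upstream. Over all bound protein-coding genes the median was 156 bp, and 198 of 3233 (6.12%) lay within 20 bp, a limit chosen after the values were seen. Cytosolic ribosomal protein genes, looked at beside them, also held summits close to their starts. They were bound in 78 of 92 cases (84.8%), with a median distance of 26 bp, and 31 of the 78 (39.7%) lay within 20 bp. All 4 elongation summits were nearer to the factor's own start than to that of any other protein-coding gene, whereas the strongest summit at 5 of 10 bound initiation genes was nearer to another gene. Over all bound genes the latter share was 28.1%. None of these differences between gene classes was tested, since genes are not replicates. All 4 bound elongation genes have 2 or more starts, against 4 of 10 bound initiation genes, and its part in the distances was not tested.

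**Figure D2:**
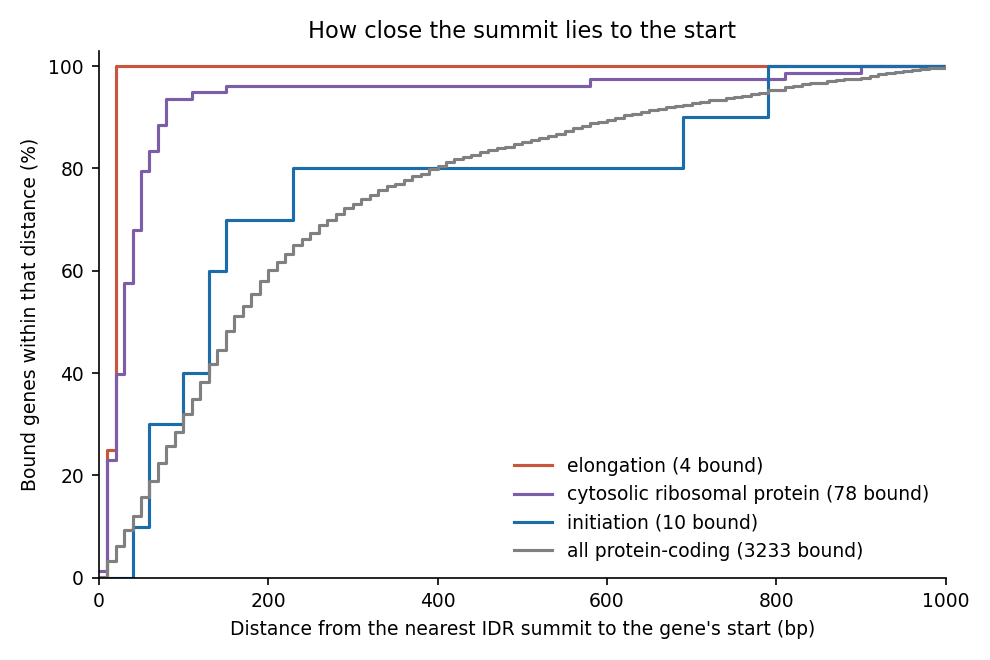
Cumulative share of bound genes (vertical axis, percent) against the distance in bp from the nearest IDR summit to the gene's start, for elongation factor, ribosomal protein, initiation factor and all protein-coding genes. The elongation line reaches its top by 20 bp; the medians are 17 bp for elongation, 26 bp for ribosomal protein, 121 bp for initiation and 156 bp for all bound genes.

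The start regions of 2 bound and 2 unbound elongation genes are given here. Sequences are from genome release 6 (dm6), 5′ to 3′ on the gene's strand. Capitals mark TATCGATA, the DNA replication-related element, on either strand, and CTTT on the gene's strand with its C within 5 bases of the start, the core of a TCT initiator. All but eEF2 run from 100 bases before the start through 30 bases from it on. For eEF2 only 15 bases on each side are shown, because a second start lies upstream. They are shown so that bound and unbound genes can be set beside each other.
eEF1gamma, bound, chr3R:29220072-29220201, plus strand: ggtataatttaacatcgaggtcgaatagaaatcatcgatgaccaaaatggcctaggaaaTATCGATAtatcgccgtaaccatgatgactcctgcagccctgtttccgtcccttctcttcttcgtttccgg
eEF2, bound, chr2L:21682102-21682131, minus strand: gtcgctgcagcgcctcgctCTTTcctgtcg
eEF1delta, unbound, chr2L:10232407-10232536, plus strand: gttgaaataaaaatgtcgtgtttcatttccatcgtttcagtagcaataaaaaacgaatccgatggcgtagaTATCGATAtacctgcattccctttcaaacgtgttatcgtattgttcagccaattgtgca
eEF1alpha2, unbound, chr3R:31738368-31738497, plus strand: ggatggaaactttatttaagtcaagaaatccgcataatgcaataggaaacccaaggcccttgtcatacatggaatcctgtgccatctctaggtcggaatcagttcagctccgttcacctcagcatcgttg
The same TATCGATA word lies 41 bases before the start of the bound eEF1gamma and 29 bases before that of the unbound eEF1delta. CTTT lies with its C 4 bases after the start base of eEF2, and eEF1alpha2 holds neither word in this window.

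Counted over all starts, CTTT at the start was present in 3 of 4 bound elongation genes (eEF1alpha1, eEF2 and eEF5), in 0 of 4 unbound ones and in 0 of 10 bound initiation genes. It was present in 4 of 34 unbound initiation genes, namely eIF3f1, eIF3i, eIF3m and eIF4A, and in 0 of 2 release genes. Ribosomal protein genes held it in 58 of 92 cases (63.0%), all protein-coding genes in 8.07% and bound protein-coding genes in 11.4%. The share also moves with the number of starts, at 5.37% for genes with a single start and 15.5% for those with more. The start with CTTT was not always the one nearest to the summit. At eEF2 it lay 16 bp from the IDR summit and at eEF5 36 bp, where another start was nearer. At eEF1alpha1 the starts with CTTT lay 18 and 969 bp from it. Other words were counted in the 250 bases before to 50 after a start, on both strands. TATCGATA was in 5 of 15 bound and 11 of 39 unbound factor genes (33.3% and 28.2%), against 10.2% of all protein-coding genes. GGTCACAC, the motif 1 word of core promoters on either strand, was in 3 of 15 and 6 of 39 (20% and 15.4%), against 8.71%. TAATTA, a homeodomain word that is its own reverse complement, was in 5 of 15 and 12 of 39 (33.3% and 30.8%), against 24.3%. TATAAA, the TATA box word on either strand, was in 10 of 15 and 16 of 39 (66.7% and 41.0%), against 51.2%. Ribosomal protein genes held TATCGATA, GGTCACAC, TAATTA and TATAAA in 30.4%, 16.3%, 29.3% and 51.1% of cases. Bound protein-coding genes held them in 13.7%, 12.8%, 29.8% and 55.1%. Of the 15 bound factor genes 9 have 2 or more starts, against 22 of all 54, and the part of this in the word counts was not tested. These are matches of letters, and no test was made.

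The strongest elongation peak was at eEF1gamma (FBgn0029176, chr3R:29219985-29220297). Its highest signal in replicates 1, 2 and 3 measured 328, 590 and 451, a mean of 456 ± 131 (SD, n = 3), and 1392 in the IDR list, rank 118 of 5586. Replicate 2 was the highest and replicate 1 the lowest, and the summit lay 6, 24 and 32 bp from a start. At eEF5, the factor that helps ribosomes through stalls and was long called eIF5A (FBgn0285952, chr2R:24057736-24057869), the replicates gave 133, 190 and 173, a mean of 165 ± 29.6 (SD, n = 3), and the IDR list 504. Its replicate summits lay 21, 23 and 30 bp downstream of the start nearest to the IDR summit. At eEF1alpha1 (FBgn0284245, chr2R:11891953-11892123) they gave 113, 202 and 164, a mean of 160 ± 44.6 (SD, n = 3), and the IDR list 458. Here too replicate 2 was the highest, and the summits lay 29 to 34 bp from a start. This gene has 4 annotated starts, and the peak lies at one of the downstream ones, within an intron of the gene.

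At eEF2 (FBgn0000559, chr2L:21681920-21682343) replicates 1 and 3 gave 163 and 164, while no region of replicate 2 lay within 1000 bp. The summits of replicates 1 and 3 lay 54 and 3 bp upstream of the start nearest to the IDR summit. That of replicate 1 lay 6 bp from the gene's other start. The IDR list gave it 428. None of the 4 unbound elongation genes was bound in the highest-signal regions of any replicate, though some of their signals were above the median of a list. In replicate 1 eEFSec, eEF1beta and eEF1delta gave 54.6, 33.8 and 30.9, where the median of all regions was 31.7. In replicate 3 these genes gave 31.2, 45.1 and 37.9, where that median was 31.6. The pooled list, derived from the alignments of the 3 replicates together, holds 30000 regions, and in it eEF1beta reached 121, eEFSec, the factor for selenocysteine, 89.6 and eEF1delta 84.2. eEF1alpha2 had no pooled region within 1000 bp and a single region in replicate 3, of signal 27.8. None of these 4 had a region of replicate 2 near a start, and the 3 pooled signals were under the IDR list's lowest of 156. An IDR summit did lie 1216 bp from eEF1delta, just outside the 1000 bp limit.

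Release factor genes were split. eRF3, the GTPase of the release complex (FBgn0020443, peak at chr2L:12434155-12434578), had a summit 85 bp upstream of a start, in an intron of the neighbouring gene SC35. Its replicate signals were 67.3, 106 and 82.4, a mean of 85.4 ± 19.7 (SD, n = 3), and the IDR value was 272. eRF1, which reads the stop codon, had no IDR summit within 1000 bp. It gave 46.5, 52.8 and 45.8 in the replicates and was bound in replicate 2 only, where its region ranked 4828.

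**Figure D3:**
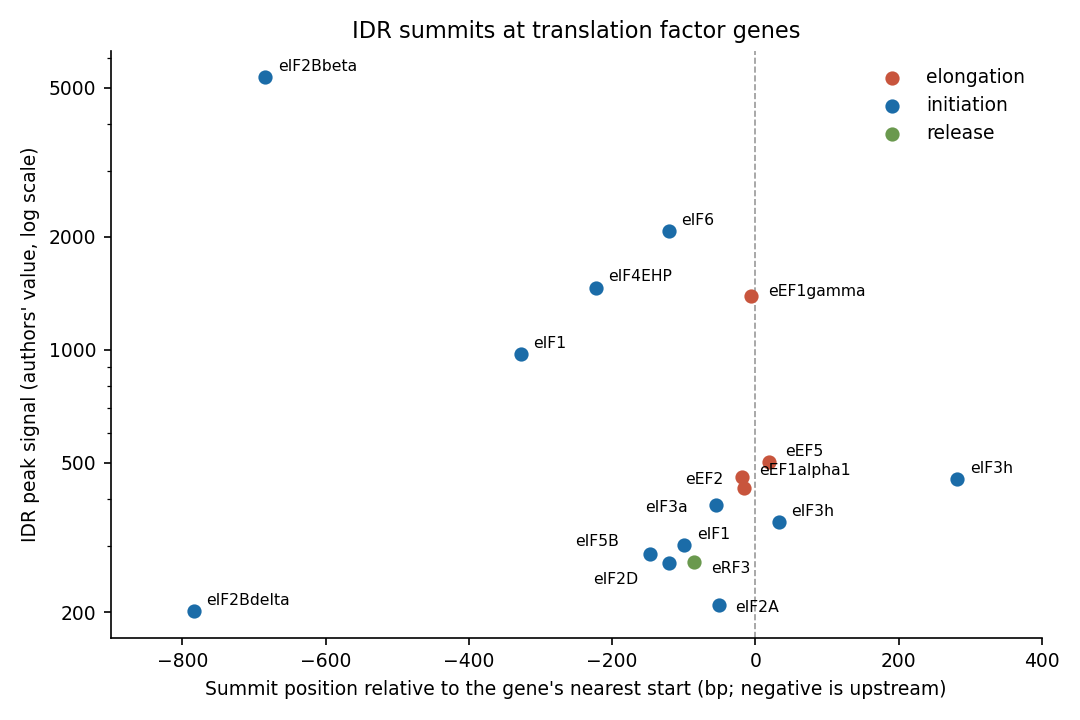
IDR peak signal (vertical axis, log scale, the authors' value) against the position of the summit relative to the gene's nearest start in bp (horizontal axis, negative upstream) for all 17 summits at the 15 bound factor genes, coloured by class. The 4 elongation summits lie from -18 to 19 bp; initiation summits spread from -784 to 282 bp and hold both the highest signal (5323) and the lowest (201).

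The highest single signals were at initiation factor genes, and several of these peaks lay between genes. As a class they were not higher, with a median strongest IDR signal of 419 over bound initiation genes and 481 over bound elongation genes. Over all bound protein-coding genes that median was 295. eIF2Bbeta, a subunit of the exchange factor eIF2B, was bound through the strongest peak of the whole list (chrX:2703658-2704095). That summit lay 684 bp upstream of the eIF2Bbeta start and 35 bp from a start of Ugalt, a UDP-galactose transporter gene. The signal was 1691, 2009 and 1650 in the replicates, rank 1 in each, and a mean of 1783 ± 197 (SD, n = 3). eIF4EHP, a cap-binding protein that represses translation, had a summit 223 bp upstream of its start and 153 bp from a start of CG18428 (peak at chr3R:24108969-24109385). Its replicate signals were 499, 546 and 428, a mean of 491 ± 59.4 (SD, n = 3), with ranks of 98, 86 and 134. eIF1, which guards the choice of start codon, had 2 IDR summits. The stronger, of signal 975 (chr3L:3222875-3223152), lay 327 bp upstream of eIF1 and 54 bp from a start of the ribosomal protein gene RpL28. The other, of signal 302, lay 99 bp upstream of eIF1 and was nearer to it than to RpL28. The highest signal near eIF1 was 221 in replicate 1 and 346 in replicate 3, and no region of replicate 2 lay within 1000 bp.

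The 121 bases centred on these 3 summits are given on the strand of the factor gene, 5′ to 3′ (dm6), because they hold strong peaks between an initiation gene and a neighbour; they were chosen after their values were seen. Capitals mark TATCGATA, TAATTA and TATAAA on either strand; GGTCACAC was searched and not found in them.
eIF2Bbeta and Ugalt, chrX:2703827-2703947, plus strand: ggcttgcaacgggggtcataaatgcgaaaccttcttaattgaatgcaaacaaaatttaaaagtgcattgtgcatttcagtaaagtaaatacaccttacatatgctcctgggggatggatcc
eIF4EHP and CG18428, chr3R:24109123-24109243, minus strand: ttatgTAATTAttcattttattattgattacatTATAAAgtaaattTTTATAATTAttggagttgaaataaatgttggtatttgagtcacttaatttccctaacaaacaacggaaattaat
eIF1 and RpL28, chr3L:3222954-3223074, plus strand: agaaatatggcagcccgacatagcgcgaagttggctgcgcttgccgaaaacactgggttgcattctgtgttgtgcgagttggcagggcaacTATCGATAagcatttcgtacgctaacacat
The 3 strong peaks differ in base composition and in words. The eIF4EHP window has a GC content of 19.8% and holds 4 matches, TAATTA and TATAAA among them, with the later TAATTA overlapping a reversed TATAAA. The eIF1 window has 50.4% and a TATCGATA that begins 31 bases after the summit base, and the eIF2Bbeta window has 39.7% and none of the words. Over the 200 bp at each summit the median GC content was 42.0% for the 12 initiation summits and 45.0% for the 4 elongation summits. It was 36.0% over all IDR summits, which were not limited to those near a start.

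Among the other start-codon factors, eIF5B, the GTPase that joins the ribosomal subunits, had a summit 147 bp upstream of a start (chr3L:3460538-3460961). Its replicate signals were 64.0, 128 and 87.1, a mean of 93.0 ± 32.4 (SD, n = 3) and replicate 2 was the highest. eIF2D, which can place the initiator tRNA without eIF2, had a summit 121 bp upstream (chr3R:29151703-29152126). Its signals of 102, 78.7 and 97.4 gave a mean of 92.5 ± 12.1 (SD, n = 3). eIF2A had an IDR signal of 209, with 104 and 75.8 in replicates 1 and 3 and no region of replicate 2 near a start. Thus 4 of 9 start-codon factor genes were bound, eIF1, eIF2A, eIF2D and eIF5B, against 23.2% of all protein-coding genes. The share was 44.4%, with an exact binomial interval of 13.7 to 78.8% that holds the background. In replicates 1, 2 and 3 the share was 55.6%, 22.2% and 77.8%, against 23.7%, 21.7% and 23.4% of all protein-coding genes, so replicate 2 lay at the background. The 3 subunits of eIF2 itself were not bound. eIF2beta and eIF2gamma reached pooled signals of 138 and 132 and were bound in replicate 3 only, and eIF2alpha had no pooled region near its start.

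**Figure D4:**
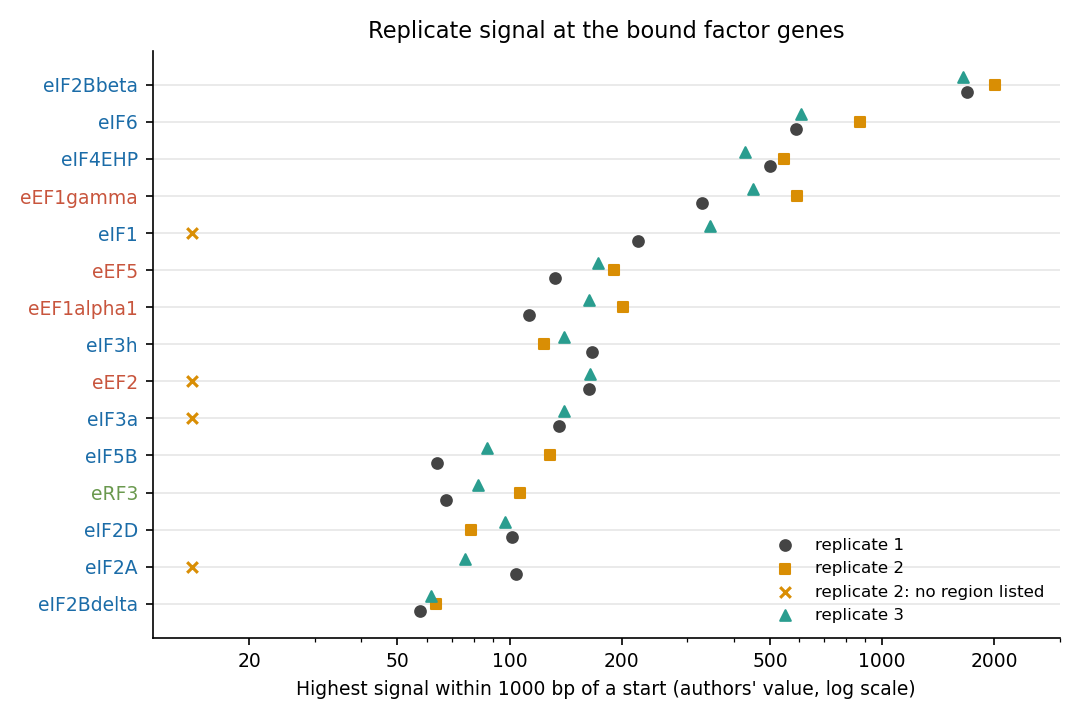
Highest signal within 1000 bp of a start (horizontal axis, log scale, the authors' value) in replicates 1, 2 and 3 for the 15 bound factor genes, ordered by IDR signal, with gene names coloured blue for initiation, red for elongation and green for release. Crosses at the left mark the 4 genes with no region of replicate 2; eIF2Bbeta is highest in each replicate (1650 to 2009).

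eIF6, which keeps the ribosomal subunits apart and is needed to make the large subunit (FBgn0034915, peak at chr2R:23850245-23850569), had the second highest signal. It measured 586, 870 and 606 in the replicates, a mean of 687 ± 159 (SD, n = 3), at ranks of 64, 21 and 44. The summit lay 117 to 122 bp from the eIF6 start in the 3 replicates, and in the IDR list it fell in an exon of the antisense RNA gene CR45928. A peak has no strand, so the 2 genes cannot be told apart there. eIF2Bdelta was bound by the weakest of the factor peaks, of signal 201, with its summit 784 bp upstream and 269 bp from CG30414. The replicate signals there were 57.3, 63.5 and 61.5, a mean of 60.8 ± 3.17 (SD, n = 3). Of 5 eIF2B genes 2 were bound, eIF2Bbeta and eIF2Bdelta, and both summits were nearer to another gene.

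In the complexes with many genes, the intervals of the shares held the 23.2% of all protein-coding genes. Of 16 eIF3 genes 2 were bound (12.5%, exact binomial interval 1.55 to 38.3%). At eIF3h (chr2L:5052369-5052561 for the stronger of its 2 IDR peaks) the highest replicate signals were 166, 124 and 140, a mean of 144 ± 21.4 (SD, n = 3). The stronger summit lay 282 bp downstream of a start, in an intron, and the weaker one, of IDR signal 348, 33 bp downstream. At eIF3a (chr3R:4433738-4434161) replicates 1 and 3 gave 136 and 140, and replicate 2 had no region near the start. That summit lay 55 bp upstream of eIF3a and 15 bp from a start of CG1074. Of 13 eIF4 genes 1, eIF4EHP, was bound in the IDR list (7.69%, interval 0.195 to 36.0%), and 3, 2 and 2 were bound in the replicates, a mean of 17.9% ± 4.44 (SD, n = 3). eIF4E1, the main cap-binding protein, had a pooled signal of 48.9, near the bottom of the list at rank 29994, and eIF4G1, the scaffold that joins cap and ribosome, had no region in the pooled or replicate lists.

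eIF4A, the helicase of the cap complex, stood between the groups. In each replicate a region near a start was among the 5586 highest, with signals of 62.7, 64.2 and 71.3, a mean of 66.1 ± 4.60 (SD, n = 3). In the pooled list its best region had 138, and the lowest IDR signal was 156. It was not called bound because the nearest IDR summit lay 3659 bp from a start. These replicate regions were not at a single place, with summits 869, 47 and 9 bp from a start. Of all genes bound in the 3 replicates, 14 of 2150 (0.651%) were likewise without an IDR summit. The region at its most upstream start (chr2L:5981664-5981793, plus strand, dm6, capitals as for the elongation genes) holds both words, TATCGATA 52 bases before the start and CTTT 4 bases after the start base.
eIF4A, unbound: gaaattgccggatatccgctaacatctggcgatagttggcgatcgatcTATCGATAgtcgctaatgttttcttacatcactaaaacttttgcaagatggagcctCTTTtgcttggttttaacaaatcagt

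In the pooled list, 33 of the 54 factor genes (61.1%) had a summit within 1000 bp of a start, against 53.3% of all protein-coding genes. Of the 39 unbound factor genes, 18 had a region of the pooled list within 1000 bp, with signals from 48.9 to 138 and a median of 82.9. The number with no region near a start in the pooled list or in any replicate was 9 of the 54 (16.7%), against 26.7% of all protein-coding genes. They were eIF2Balpha, eIF3d2, eIF3i, eIF4B, eIF4E4, eIF4E5, eIF4E7, eIF4G1 and eIF4H2. The unbound genes with an IDR summit just beyond the limit were eEF1delta, eIF2Bgamma at 1259 bp, eIF3d1 at 1313 bp and eIF3g1 at 1369 bp. The bound gene nearest to the limit was eIF2Bdelta at 784 bp. Including eIF4A, 7 unbound genes were bound in a replicate list. eIF3c and eIF5 were bound in replicates 1 and 3, eIF2beta and eIF2gamma in replicate 3, eIF4H1 in replicate 1 and eRF1 in replicate 2.

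Several factors are encoded by pairs or families of related genes. The pair eEF1alpha1 and eEF1alpha2 was split, with pooled signals of 458 and no region. In the pairs eIF3d1 and eIF3d2, eIF3f1 and eIF3f2, eIF3g1 and eIF3g2, eIF4H1 and eIF4H2, and eIF4G1 and eIF4G2, neither gene was bound, and the highest pooled signal in these pairs was 81.7, at eIF4G2. In the eIF4E family, eIF4EHP was bound and the 6 other genes were not, with pooled signals of 48.9 and 50.5 at eIF4E1 and eIF4E3 and no pooled region at the others.

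Replicate 2 was the library that most often lacked a factor peak. No region of it lay within 1000 bp of eEF2, eIF1, eIF2A and eIF3a, 4 of the 15 bound genes (26.7%), whereas replicates 1 and 3 had a region at all 15. Over all bound protein-coding genes 8.10% lacked a region of replicate 2, 1.11% one of replicate 1 and 0.371% one of replicate 3. For 10 of the 15 bound genes the strongest IDR summit lay inside a region of each of the 3 replicates. The authors' −log10 q reached 2 or more in 9759 regions of replicate 1, 3212 of replicate 2 and 6498 of replicate 3.

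Of 20 other genes of translation control, 12 (60%) were bound, again against 23.2% of all protein-coding genes. These genes are a hand-picked list of regulators and helpers of translation. In the replicates the count was 12, 7 and 11, but 4 of the 20 (20%) were bound in all 3, against 15.4% of all protein-coding genes. Of these 20 genes, 15 have 2 or more starts and held 10 of the 12 bound. Lk6, the kinase that phosphorylates eIF4E, had an IDR signal of 2922, though the summit nearest to its start lay 59 bp away and the strongest farther upstream, and larp, an mRNA-binding regulator, 2043, where again the strongest summit lay farther from a start than the nearest one, at 167 bp. Thor, the 4E-BP inhibitor of eIF4E, had 429 at 30 bp and pelo, a ribosome rescue factor, 328 at 152 bp. The others bound were bel, pAbp, Paip2, pix, Gcn2, NAT1, crc and kra, with IDR signals from 159 to 341. PEK, mxt, cup, HBS1, Tctp, DENR, MCTS1 and vas were not bound.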

How the data were processed

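ChIP-seq peaks from 3 biological replicates of 1 group were used, and nothing measured expression, so the tissue could not be checked against markers. The deposited lists on dm6 were the authors' IDR-thresholded list of 5586 regions and lists of 30000 regions for the pool and for each replicate, which also hold background regions. Per the file headers and file descriptions these give, for each region, the signal that the authors' caller assigned. The authors also deposited a −log10 q for each region, used as a threshold of 2 in 1 alternative. Which aligner, peak caller and IDR threshold were used is not given in the sources used here. Signal was not rescaled between lists. Read depth is unknown, so no floor per region can be given.

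Starts were all annotated transcript starts of protein-coding genes (Ensembl release 115, BDGP 6.54, 19607 distinct starts on 6 arms). Sequences are from NCBI RefSeq, genome release 6. Summits were matched to starts within 1000 bp with Python 3.11.15, pandas 2.3.3, numpy 2.4.6 and SciPy 1.17.1. On simulated summits, 200 of 200 planted within the limit were recovered and 0 of 200 planted outside were called. The members and lists were chosen with earlier results of these data known. Every bound factor gene is named, as are all elongation and release genes, and unbound initiation genes are named by role. The distance limit of 20 bp, eIF4A, the counts of missing regions and the printed sequences were chosen after values were seen. Alternatives were other distances, a higher signal, pooled regions, the most upstream start, summits with no nearer gene, each replicate left out, and another number of regions per replicate. Lists on dm3 were not used here.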

Additional observations from a re-analysis of the deposited data

How the results depend on the processing

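The count of bound factor genes was 15 within 1000 bp, and 13 both within 500 bp and with IDR peaks at or above the median signal, where eIF2Bdelta was lost each time. All protein-coding genes had 19.7% and 14.1% there, against 24.1% of factor genes in both. Within 5000 bp it rose to 24, 18 of them initiation genes, and the share of 44.4% equalled that of all protein-coding genes. With pooled regions it was 33 (61.1%, against 53.3%), with 24 initiation and 7 elongation genes. Requiring that no other gene's start lay nearer left 20.4% of factor genes, against 17.4%, and 6 initiation genes, without eIF2Bbeta, eIF2Bdelta, eIF3a and eIF4EHP, and all 4 elongation genes. Leaving out a replicate gave 9 to 14 factor genes, 6 to 9 initiation genes and 2 to 4 elongation genes. Without replicates 1, 2 and 3 the factor shares were 18.5%, 25.9% and 16.7%, against 16.7%, 17.9% and 16.0% of all protein-coding genes. The cause of these changes was not tested. Over the bound genes with a region in all 3 replicates, 7 of 10 initiation and 3 of 4 elongation genes, the median replicate signal was 144 (132 to 153 with a replicate left out) and 165 (153 to 183). The count of strongest summits found in all 3 replicates was 10, or 11 with 50% of the peak covered by a region and 9 in the highest-signal regions. With regions chosen by their −log10 q (2 or more), the mean replicate share was 32.6% for initiation and 50% for elongation genes, against 27.3% and 45.8%, where 34.6%, 15.7% and 26.1% of all protein-coding genes were bound in replicates 1, 2 and 3. In the 200 bp at summits, 3 bound factor genes held TAATTA and 4 held TATAAA. The counts of 5 and 10 in promoters are for another, longer window, so they are not alike. Of the 17 factor summits, 17.6% held TAATTA and 23.5% TATAAA, against 16.6% and 33.9% of all IDR summits. TATCGATA was in 4 factor summits (23.5%, against 2.35%) and GGTCACAC in 3 (17.6%, against 1.88%). The factor summits lie within 1000 bp of a start by definition, whereas the IDR summits as a whole were not limited in this way. These sets are thus unlike, and the shares were not tested. No paired analysis was possible because the samples form 1 group with no other to pair with; gene classes were compared within replicates. Depth is unknown, so an absent region is not shown to be an absent site.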

Other observations

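The unbound initiation genes eIF3c and eIF5 were bound in the highest-signal regions of replicates 1 and 3 but had no pooled region near a start. Other unbound initiation genes, such as eIF2Bepsilon and eIF2alpha, also had replicate regions and no pooled one, but these 2 examples were bound in no replicate. At eIF3c, a core eIF3 subunit, replicates 1 and 3 gave 69.4 and 67.9, at ranks 4688 and 4358 of 30000. At eIF5, which makes eIF2 hydrolyse its GTP, they gave 68.7 and 58.4, at ranks 4771 and 5531. Neither gene had a region of replicate 2 or of the pooled list within 1000 bp. Among factor genes bound in replicates 1 and 3, eIF3c and eIF5 were the 2 of 17 (11.8%) with no pooled region, against 43 of 2678 protein-coding genes (1.61%).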
